A study of Mus musculus with 1528 samples.

Results

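The 48 genes described here are 22 S-phase genes and 26 G2/M genes of the cell cycle, taken by name from a table of 55421 genes; all 48 were found. They were measured by Smart-seq2, which makes full-length cDNA from a single cell, in bone marrow-derived macrophages (BMDMs) grown with M-CSF from the marrow of 2 wild-type C57BL/6 mice. Cells of each mouse received IL4+IL13 or IL4+IL13+TNF, with each cytokine at 10 ng/ml, for 24 h, and living single cells were then sorted into 4 plates. No allele differed between the groups, and there was no unstimulated group. Plates 2 and 3 held mouse 1 and plates 4 and 5 held mouse 2, so that a difference between mice cannot be told apart from one between plates. On every plate IL4+IL13 filled rows A to H and IL4+IL13+TNF rows I to P, so that treatment and row position cannot be told apart. Of 1524 wells, 1386 passed the quality filter. Mouse 1 gave 357 of them without and 347 with TNF, and mouse 2 gave 333 and 349, with 162260282 to 179757666 counted fragments in each of these 4 sums. The mouse is the replicate, so each treatment has n = 2.

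A cell that enters S phase makes the helicase, nucleotides and clamp it needs to copy its DNA, largely under E2F transcription factors. It then makes the cyclins, kinases, checkpoint and spindle proteins of mitosis, many of them under MuvB complexes such as DREAM, which bind the cell cycle homology region (CHR) of their promoters. Macrophages grown with M-CSF, a growth factor for this lineage, are a mix of dividing and resting cells, and inflammatory stimuli such as LPS are known to slow their division.

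The promoters of the S and the G2/M genes held the short motifs of E2F and CHR binding at different shares. RefSeq gives promoters on GRCm38.p6 (the mm10 build), from 250 bases before to 50 after each start, for 38 of the 48 genes. An E2F motif (TTTCCCGC, TTTCGCGC, TTTGCCGC or TTTGGCGC), a CHR (TTTGAA or TTTAAA) and a CCAAT box were searched on both strands; none of these motifs contains another. An E2F motif stood in promoters of 8 of 18 S genes and of 1 of 20 G2/M genes, beside 2.60% of all 27025 genes. These genes have 32851 promoters of this length, and a gene counts if any of its promoters matches. A CHR stood in 7 of 18 S genes and 18 of 20 G2/M genes, beside 30.6% of all genes. A CHR and a CCAAT box stood together in 6 of 18 S genes and 16 of 20 G2/M genes, beside 12.2% of all genes. The 8 windows here were picked as examples of these motifs in genes of both lists. Each is the 150 bases before the RefSeq start, 5′ to 3′ on the gene's strand, with matches in capitals.
Mcm6, chr1:128359706-128359855, minus strand: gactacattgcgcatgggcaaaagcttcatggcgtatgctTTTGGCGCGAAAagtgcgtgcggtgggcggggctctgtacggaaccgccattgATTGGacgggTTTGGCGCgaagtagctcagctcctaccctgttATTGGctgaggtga
Hells, chr19:38930840-38930989, plus strand: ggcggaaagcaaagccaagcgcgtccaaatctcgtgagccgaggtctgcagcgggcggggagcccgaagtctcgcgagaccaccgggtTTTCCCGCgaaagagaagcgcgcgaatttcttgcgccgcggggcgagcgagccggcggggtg
Cdc6, chr11:98908001-98908150, plus strand: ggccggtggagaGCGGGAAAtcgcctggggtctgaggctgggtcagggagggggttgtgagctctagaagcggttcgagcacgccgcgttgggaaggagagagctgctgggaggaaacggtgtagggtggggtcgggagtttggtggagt
Ccnb2, chr9:70421555-70421704, minus strand: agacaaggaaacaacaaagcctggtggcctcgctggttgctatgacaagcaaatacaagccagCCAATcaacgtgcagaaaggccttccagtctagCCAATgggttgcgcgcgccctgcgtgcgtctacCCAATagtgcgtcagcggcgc
Cdc20, chr4:118437344-118437493, minus strand: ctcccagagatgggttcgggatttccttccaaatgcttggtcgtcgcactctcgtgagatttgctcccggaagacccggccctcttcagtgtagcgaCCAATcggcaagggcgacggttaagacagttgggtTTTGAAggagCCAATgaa
Ube2c, chr2:164769779-164769928, plus strand: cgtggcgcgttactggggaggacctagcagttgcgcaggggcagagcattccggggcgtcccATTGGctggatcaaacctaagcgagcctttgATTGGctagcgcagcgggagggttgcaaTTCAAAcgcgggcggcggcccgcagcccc
Top2a, chr11:99024190-99024339, minus strand: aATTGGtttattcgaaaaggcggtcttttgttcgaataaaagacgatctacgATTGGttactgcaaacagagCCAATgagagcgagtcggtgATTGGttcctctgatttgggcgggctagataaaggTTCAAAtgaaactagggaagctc
Cdk1, chr10:69352913-69353062, minus strand: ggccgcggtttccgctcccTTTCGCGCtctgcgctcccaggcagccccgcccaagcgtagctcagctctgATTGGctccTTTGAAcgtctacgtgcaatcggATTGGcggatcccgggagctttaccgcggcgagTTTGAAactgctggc
*Mcm6* held E2F matches that start 110, 106 and 47 bases before its start, and the first pair overlap. *Hells* and *Cdc6* each held 1 E2F match in the window and no CHR. *Cdc20*, *Ube2c* and *Top2a* each held a CHR between 18 and 29 bases before the start, with at least 1 CCAAT box further from the start. *Cdk1* was the G2/M gene with an E2F match, and it also held a CHR 71 and 15 bases before its start. *Ccnb2* showed 3 CCAAT boxes here, and its CHR matches lay 167 bases before and 4 bases after the start. A match is a run of letters and was not tested as a binding site.

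**Figure D1:**
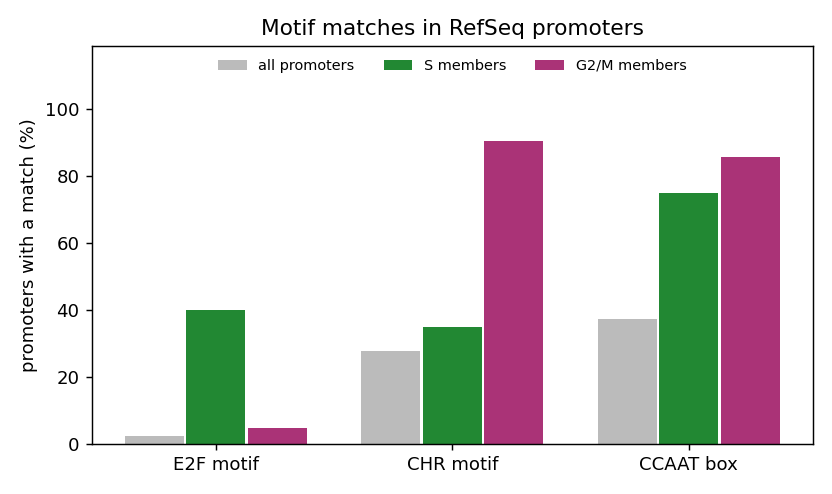
Bars give the percentage of RefSeq promoters with at least 1 match (y axis, from 0) for an E2F motif, a CHR and a CCAAT box, in all promoters, the S members and the G2/M members. The S members had the highest bar for E2F and the G2/M members for the CHR (90.5%).

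Fewer cells carried a G2/M profile when TNF was added. Each cell was scored on the 22 S and the 26 G2/M genes against control genes of like level and put into the S class, the G2/M class or neither, after all cells were thinned to 339000 fragments; 1250 cells were deep enough, and the shallower ones that dropped out numbered 25 without and 44 with TNF in mouse 1, and 24 and 43 in mouse 2. The G2/M class held 91 of 332 cells of mouse 1 with IL4+IL13, or 27.4% (95% exact Clopper-Pearson interval 22.7 to 32.5), and 59 of 309 of mouse 2, or 19.1% (14.9 to 23.9). With TNF it held 27 of 303 cells, or 8.91% (5.95 to 12.7), and 22 of 306, or 7.19% (4.56 to 10.7). The intervals cover the counting of cells only and not the spread between mice, because the mouse is the replicate. The TNF shares were below the others in both mice, by 15.2 ± 4.66 percentage points (SD, n = 2). The exact two-sided permutation test over the 4 shares gave p = 0.333, the smallest value that 2 against 2 allows, and so cannot pass 0.05.

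The G2/M share was lower with TNF on each of the 4 plates. It was 28.3% and 26.5% on plates 2 and 3 and 19.8% and 18.4% on plates 4 and 5 with IL4+IL13, and 10.9%, 7.43%, 5.52% and 8.70% on the same plates with TNF. The groups of plates did not overlap. The 2 treatments of a mouse lay in rows A to H and rows I to P of its plates, and values within a treatment do not bear on that split. In mouse 1 the share was 27.4% in rows A to D and 27.4% in rows E to H with IL4+IL13, and 8.07% in rows I to L and 9.86% in rows M to P with TNF. In mouse 2 these shares were 20.4%, 17.96%, 6.08% and 8.23%. Without thinning the G2/M shares were 28.0% and 19.2% with IL4+IL13 and 10.95% and 8.31% with TNF. With scores from 29 other S-phase and 35 other G2/M genes, they were 29.2% and 19.7% against 11.9% and 8.17%.

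The S share differed more between the mice, each on its own plates, than between the treatments. It was 23.5% in mouse 1 and 6.80% in mouse 2 with IL4+IL13, and 20.1% and 5.56% with TNF. The S share depended on the scoring. It was 19.05% and 3.30% against 16.1% and 3.44% without thinning, 19.3% and 11.3% against 17.8% and 11.8% with the other genes, and 9.94% and 1.29% against 8.25% and 1.31% with a plain mean score. In these 3 alternatives the share of mouse 2 was higher with TNF, by 0.135, 0.44 and 0.013 points. In the scoring used here the difference of 2.30 ± 1.5 percentage points (SD, n = 2) was below the spread between mice (SD 11.8 with IL4+IL13), and the exact permutation test gave p = 0.667. On the plates the S share was 25.9%, 21.1%, 7.41% and 6.12% with IL4+IL13 and 26.6%, 15.4%, 7.59% and 3.73% with TNF, and the groups overlapped. Both mice had a smaller part of their scored cycling cells in the G2/M class with TNF, 53.8% and 73.8% against 30.7% and 56.4%. Within a mouse this part was lower by 20.3 ± 4.12 percentage points (SD, n = 2). On the plates it went from 52.2% to 29.2%, 55.7% to 32.5%, 72.7% to 42.1% and 75% to 70.0%. The shares of the treatments overlapped across mice, and the exact permutation test, which does not pair them, gave p = 0.667.

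**Figure D2:**
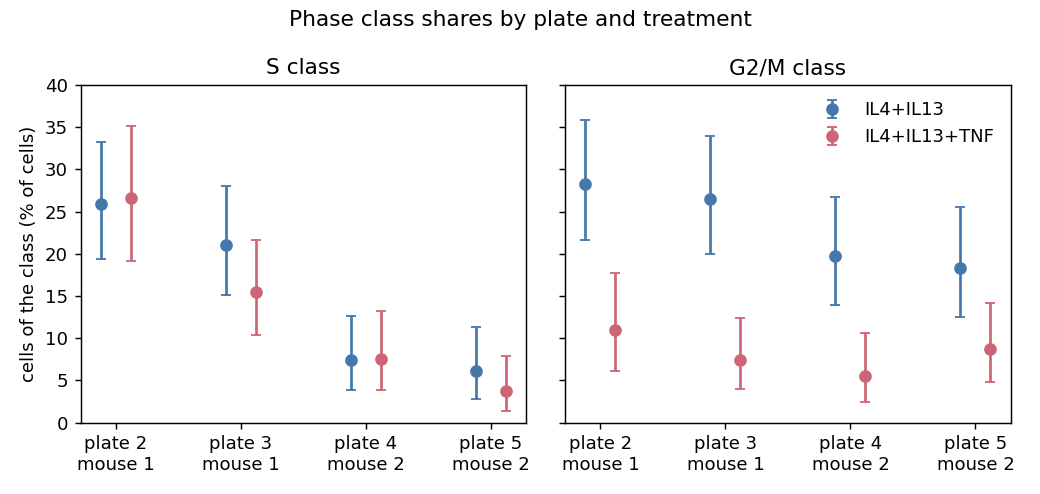
Points give the share of cells in the S class (left) and the G2/M class (right) on each plate (x axis) for IL4+IL13 (blue) and IL4+IL13+TNF (red), with 95% exact Clopper-Pearson intervals as bars. In the right panel the red points, at 5.52 to 10.9%, all sit below the blue points, at 18.4 to 28.3%.

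The classes are ranges of a score. Of 177 cells called S, 45 (25.4%) had an S score under 0.05, and 136 cells of neither class had an S score within 0.05 below the cut, while 13 of 199 cells called G2/M (6.53%) lay as near. Both scores were above 0 in 177 of 1250 cells. The S class is therefore less sharply bounded than the G2/M class, and neither class is a measure of DNA content.

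Levels over all kept cells were lower with TNF in both mice for 26 of 26 G2/M genes and 14 of 22 S genes, beside 32.4% of the 17034 genes tested. Both TNF sums lay under both other sums for 21 of 26 G2/M genes and 0 of 22 S genes, beside 17.9% of genes. The median log2 fold change was -0.96 for the G2/M genes and -0.40 for the S genes, beside 0.00 for all genes. By edgeR's quasi-likelihood test without a term for the mouse, 0 of 48 genes were called lower at an adjusted p under 0.05, beside 0.0% of all genes; 12 G2/M genes and 0 S genes had an unadjusted p under 0.05, beside 8.1% of all genes in either direction. With the mouse as a block, which pairs the treatments within each animal, edgeR called 17 of 26 G2/M genes and 0 of 22 S genes lower, beside 1.88% of all genes. DESeq2 without the block called 8 and 0, beside 1.72%. The fit without the block was the main one, and the fit with the block and DESeq2 were alternatives. A lower level in such sums cannot be told apart from fewer cells that express the gene. Levels of single genes over all kept cells are counts per 1000000 fragments (CPM) of the sums, scaled by the TMM method of edgeR. Levels within phase classes and marker sums are CPM of the total fragments, without TMM. Folds are log2 fold changes of TNF against IL4+IL13 from the fit without the block, with its standard error (SE). The adjusted p beside them is of another fit, edgeR with the block. For the single genes below, passing or being called refers to that fit unless another is named. Without the block the smallest adjusted p of the 48 genes was 0.135 by edgeR.

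**Figure D3:**
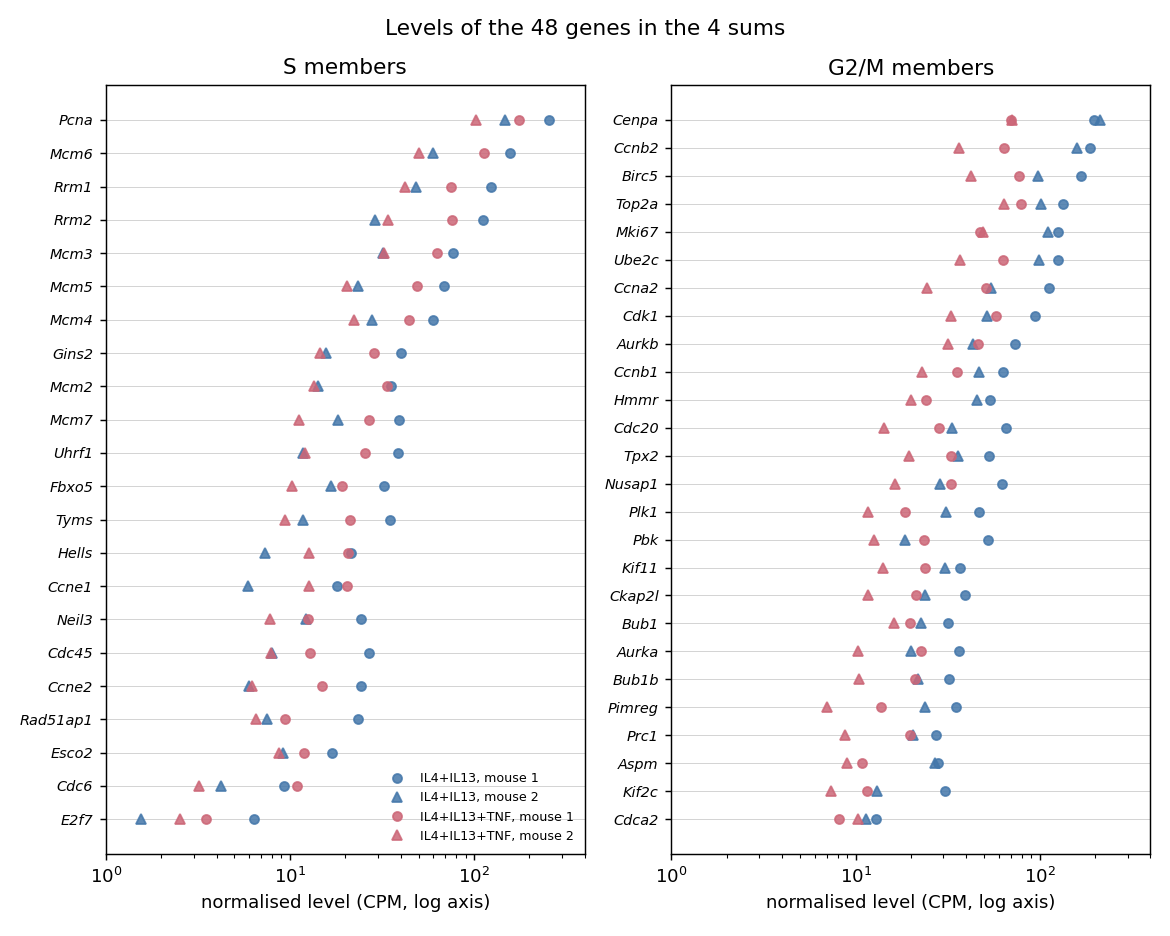
Points give the level of each gene (rows, ordered by mean level) in the 4 sums on a log axis of CPM, blue for IL4+IL13 and red for IL4+IL13+TNF, circles for mouse 1 and triangles for mouse 2. In the right panel the red symbols lie left of both blue symbols for 21 of 26 G2/M genes, and in the left panel for 0 of 22 S genes.

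Among the mitotic cyclins and kinases, the level of *Ccnb2*, a B-type cyclin that activates CDK1, was 187 and 159 CPM with IL4+IL13 and 63.9 and 36.5 CPM with TNF in mouse 1 and mouse 2. Both values with TNF were under both without it, and the log2 fold change was -1.79 (SE 0.32, adjusted p = 0.0125). This was 3.57-fold lower in the blocked fit. *Ccna2*, the cyclin of S phase and G2, was at 113 and 54.2 CPM against 51.2 and 24.5 CPM. Its log2 fold change was -1.14 (SE 0.50, adjusted p = 0.0145). *Plk1*, *Ccnb1* and *Cdk1* were also called in the blocked fit, while *Aurka*, *Aurkb* and *Pbk* were not, with adjusted p of 0.0642, 0.0853 and 0.0808. All 8 genes of this group were lower on all 4 plates.

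Among the checkpoint and APC/C genes, *Ube2c*, the ubiquitin-conjugating enzyme of the anaphase-promoting complex, was at 125 and 99.0 CPM against 63.5 and 36.8 CPM with TNF. The groups did not overlap, and the log2 fold change was -1.16 (SE 0.32, adjusted p = 0.0218). *Cdc20*, the activator of that complex, was at 65.5 and 33.4 CPM against 28.4 and 14.2 CPM. Its log2 fold change was -1.21 (SE 0.48, adjusted p = 0.0159). The spindle checkpoint kinase genes *Bub1* and *Bub1b* did not pass, with adjusted p of 0.112 and 0.0757.

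Among the chromosome and centromere genes, *Cenpa*, the histone H3 variant of centromeres, had nearly the same level in both mice. It was at 196 and 212 CPM with IL4+IL13 and 69.9 and 70.5 CPM with TNF, a log2 fold change of -1.54 (SE 0.16, adjusted p = 0.00771). *Mki67*, the proliferation marker Ki-67, was at 126 and 111 CPM against 47.7 and 49.3 CPM, a log2 fold change of -1.29 (SE 0.18, adjusted p = 0.0135). Both genes had mouse values that differed far less than the treatments did. *Birc5*, the survivin subunit of the chromosomal passenger complex, was at 169 and 97.4 CPM against 77.3 and 42.4 CPM, with a log2 fold change of -1.15 (SE 0.41, adjusted p = 0.0135). *Top2a*, the topoisomerase that untangles sister chromatids, was at 135 and 102 CPM against 79.2 and 64.0 CPM, with a log2 fold change of -0.72 (SE 0.23, adjusted p = 0.0353). *Cdca2* had the smallest difference of the G2/M genes, at -0.40, and did not pass.

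Among the spindle genes, *Hmmr*, a microtubule-binding protein of the spindle poles, was at 53.7 and 45.7 CPM against 24.2 and 19.9 CPM with TNF. Its log2 fold change was -1.17 (SE 0.22, adjusted p = 0.0175). *Tpx2*, the activator of Aurora A, was at 52.8 and 36.2 CPM against 33.0 and 19.6 CPM, and its log2 fold change was -0.76 (SE 0.35, adjusted p = 0.0487). *Pimreg*, a mitotic regulator of chromosome segregation, had the largest difference of the group. It was at 35.2 and 23.97 CPM against 13.8 and 7.03 CPM, a log2 fold change of -1.51 (SE 0.41, adjusted p = 0.0206). *Aspm*, *Nusap1* and *Ckap2l* also passed, and *Prc1*, *Kif2c* and *Kif11* did not. Without the block, DESeq2 called *Ccnb2*, *Plk1*, *Ube2c*, *Mki67*, *Cenpa*, *Hmmr*, *Aspm* and *Pimreg*, with an adjusted p between 2.87e-09 for *Cenpa* and 0.0261 for *Ube2c*.

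**Figure D4:**
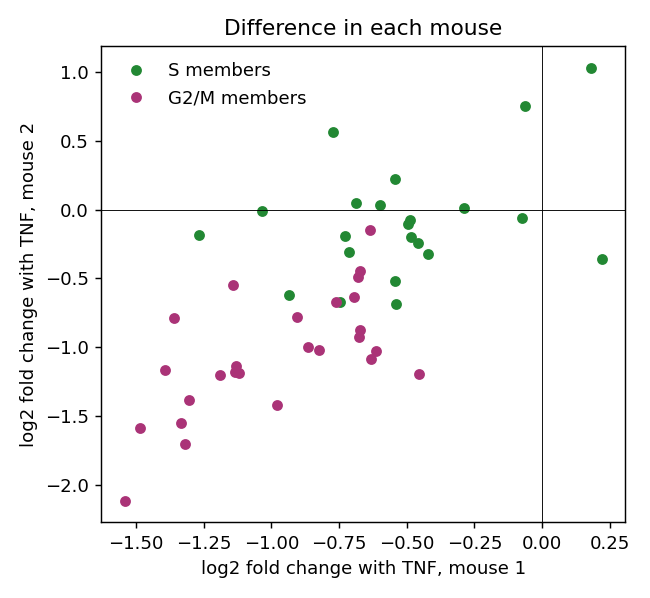
Each point is 1 gene, with its log2 fold change with TNF in mouse 1 (x axis) and in mouse 2 (y axis), from CPM with 0.5 added, green for the S and purple for the G2/M genes. All 26 purple points lie in the quadrant lower in both mice, where 14 of 22 green points also lie.

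None of the S genes passed in these fits, and their levels followed the mouse, which cannot be told apart from its plates. In the licensing and helicase group, *Mcm6*, a subunit of the replicative helicase, was at 156 and 60.1 CPM with IL4+IL13 and 114 and 50.6 CPM with TNF, a log2 fold change of -0.40 (SE 0.58, adjusted p = 0.172). *Mcm3*, another subunit, was at 77.0 and 32.2 CPM against 63.0 and 32.4 CPM, a log2 fold change of -0.20 (SE 0.52, adjusted p = 0.614). *Cdc45*, which joins that helicase when it is activated, was at 26.8 and 8.01 CPM against 12.8 and 7.95 CPM, with the largest log2 fold change of the group at -0.74 (SE 0.62, adjusted p = 0.374). For all 3 genes the sums of mouse 1 were above those of mouse 2 in both treatments. The other members of the group, *Mcm2*, *Mcm4*, *Mcm5*, *Mcm7*, *Cdc6* and *Gins2*, had log2 fold changes between -0.60 and 0.06.

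In the nucleotide supply and clamp group, *Pcna*, the sliding clamp of DNA polymerases, was at 256 and 148 CPM against 176 and 103 CPM with TNF. Its log2 fold change was -0.54 (SE 0.38), and its adjusted p of 0.0581 was the smallest among the S genes in edgeR's blocked fit. *Rrm1*, the large subunit of ribonucleotide reductase, was at 124 and 48.2 CPM against 74.7 and 42.1 CPM, a log2 fold change of -0.56 (SE 0.52, adjusted p = 0.188). *Tyms*, which makes thymidylate, was at 35.0 and 11.8 CPM against 21.2 and 9.46 CPM, with a log2 fold change of -0.61 (SE 0.64, adjusted p = 0.187). *Rrm2*, the small subunit of the reductase, was lower with TNF in mouse 1 and higher in mouse 2.

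In the replicated chromatin and repair group, *Uhrf1*, which carries DNA methylation through replication, was at 38.8 and 11.8 CPM against 25.5 and 12.02 CPM with TNF, a log2 fold change of -0.43 (SE 0.66, adjusted p = 0.492). *Hells*, a chromatin remodeller, was at 21.6 and 7.35 CPM against 20.7 and 12.7 CPM, a log2 fold change of 0.20 (SE 0.57, adjusted p = 0.492). *Rad51ap1*, a DNA repair gene, was at 23.5 and 7.50 CPM against 9.45 and 6.55 CPM, with the largest log2 fold change of the S genes at -0.95 (SE 0.58, adjusted p = 0.254). *Neil3* and *Esco2* were lower in both mice, with log2 fold changes of -0.85 and -0.34.

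In the group of G1/S regulators, *Fbxo5*, an inhibitor of the anaphase-promoting complex, was at 32.7 and 16.7 CPM against 19.3 and 10.3 CPM with TNF. Its log2 fold change was -0.74 (SE 0.46, adjusted p = 0.0771). *Ccne1*, the cyclin of S-phase entry, was at 17.96 and 5.95 CPM against 20.4 and 12.7 CPM, and was the only one of the 48 genes above the IL4+IL13 level in both mice, with a log2 fold change of 0.47 (SE 0.58, adjusted p = 0.261). *Ccne2* and *E2f7* had log2 fold changes of -0.52 and -0.39.

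For many of these genes most of the fragments came from few cells. The 5% of kept cells with the highest level of a gene held between 23.5% (*Pcna*) and 98.2% (*E2f7*) of its summed CPM among the S genes, and between 32.7% (*Cenpa*) and 77.2% (*Cdca2*) among the G2/M genes. At equal depth a *Pcna* fragment was found in 93.5 to 99.1% of the cells of each mouse and treatment. A *Cenpa* fragment was found in 88.6% and 89.0% of cells with IL4+IL13 and 56.1% and 64.7% with TNF, and a *Ccnb2* fragment in 66.0% and 55.3% against 35.0% and 33.7%. Per kilobase of the union of a gene's exons, the mean level was highest for *Ccnb2* (72.9 CPM per kb) and *Pcna* (71.0) and lowest for *E2f7* (0.387).

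Within the classes the levels show how the genes are spread over the cycle. These classes were set by the same genes, so their levels in each class are a description. Summed over the 26 G2/M genes, cells of the G2/M class were at 5976 and 6309 CPM with IL4+IL13 and at 6452 and 6137 CPM with TNF, a narrow range in which the treatments overlapped. In cells of neither class the same sum was 249 and 291 CPM with IL4+IL13 and 116 and 135 CPM with TNF. Summed over the 22 S genes, cells of the S class were at 2702 and 1483 CPM against 2343 and 1852 CPM, and cells of the G2/M class were at 1585 and 1307 CPM against 1789 and 2010 CPM.

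All 26 G2/M genes were higher in the G2/M than in the S class, with a median ratio of 6.14, and 9 of 22 S genes were too. *Cdc20* had the largest ratio, with 229 CPM in the G2/M class, 5.61 CPM in the S class and 1.26 CPM in neither. *Cenpa* had the highest level of the G2/M genes in cells of neither class, at 69.7 CPM, with 82.5 CPM in the S class and 501 CPM in the G2/M class. *Ccne1* and *Ccne2* were the S genes with the smallest ratios, at 60.0 and 59.3 CPM in the S class against 10.6 and 12.5 CPM in the G2/M class. *Neil3*, *Esco2* and *Fbxo5* were listed as S genes but were 3.16, 2.86 and 2.16 times as high in the G2/M class.

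**Figure D5:**
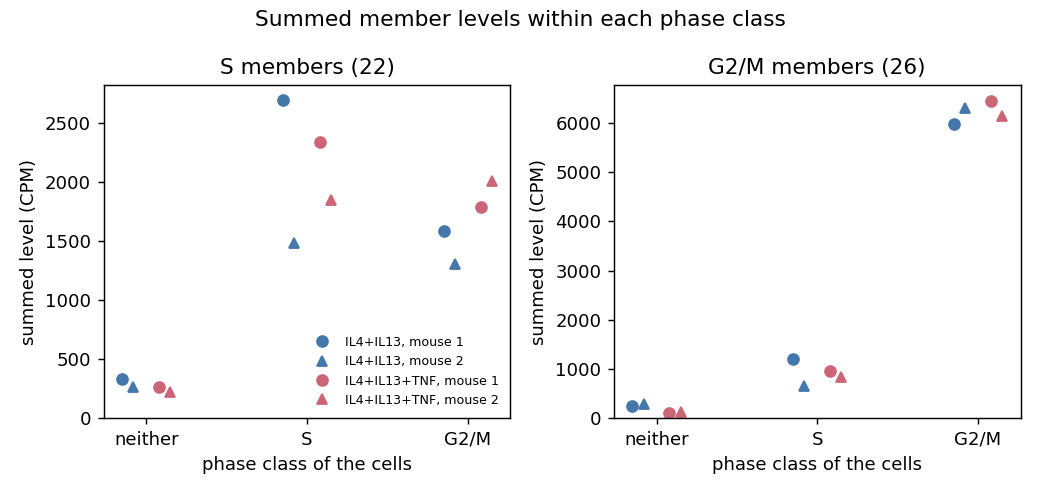
Points give the summed level in CPM of the 22 S genes (left) and the 26 G2/M genes (right) in the cells of each phase class (x axis), blue for IL4+IL13 and red for IL4+IL13+TNF, circles for mouse 1 and triangles for mouse 2. In the G2/M class the 4 sums of the G2/M genes lie between 5976 and 6452 CPM.

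Counts summed over all S and G2/M class cells were tested with the same fits, and 0 of 48 genes were called by edgeR with or without the block and by DESeq2. Of all 16277 genes, 0.00614% were called in edgeR without the block, 0 with it and 1.88% in DESeq2. In edgeR with the block 8 G2/M genes were lower and 4 S genes higher at an unadjusted p under 0.05, beside 1676 of 16277 genes. In edgeR without the block 4 of the 48, *Ccnb2* and *Pimreg* (log2 fold change -0.80) lower and *Mcm2* and *Hells* higher, had an unadjusted p under 0.05, beside 6.5% of all genes; the last 3 are named because of these values. In this mix, which held a smaller part of G2/M cells with TNF, the log2 fold change was -0.97 for *Ccnb2* (SE 0.29), -0.88 for *Cenpa* (SE 0.35), -0.56 for *Mki67* (SE 0.45) and 0.04 for *Top2a* (SE 0.38). With 1 sum left out, *Ccnb2* ranged from -1.26 to -0.62, *Cenpa* from -1.30 to -0.53 and *Mki67* from -1.19 to -0.11. With all sums the log2 fold change was positive for 20 of 22 S genes, with a median of 0.37 and values of 0.74 for *Mcm2* (SE 0.24) and 1.10 for *Hells* (SE 0.36), and negative for 23 of 26 G2/M genes, with a median of -0.20. Its sign changed for 33 of the 48 genes in at least 1 alternative, those within 1 class included. With 1 sum left out the S median ranged from 0.07 to 0.78 and the G2/M median from -0.45 to -0.10. Within the G2/M class alone, an alternative chosen after seeing the data, 20 of 26 G2/M genes and 22 of 22 S genes had a positive log2 fold change, with medians of 0.18 and 0.40. Those of *Ccnb2*, *Cenpa*, *Mki67* and *Top2a* were -0.41, -0.40, -0.33 and 0.45, with SE of 0.21, 0.18, 0.30 and 0.28, in a class of 22 to 91 cells per sum. edgeR called 0 of 48 genes, beside 0.00654% of all genes, and 5 had an unadjusted p under 0.05, beside 7.2%. Within the S class edgeR called 0 of 48 genes, beside 0.0% of all genes, and 2 had an unadjusted p under 0.05, beside 4.85%.

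Across cells the genes of a list moved together. Spearman's rho of each gene with the mean log2(CPM + 1) of the rest of its list, averaged over the 4 sets of 303 to 332 cells, had a median of 0.41 for the S and 0.50 for the G2/M genes, and the S and G2/M means had a rho of 0.59 with each other. *Ube2c* (0.60) and *Birc5* (0.59) followed their list most closely, and *Ccne1* (0.21) and *Pcna* (0.29) least. *Rrm2*, *Tyms*, *Neil3*, *Rad51ap1* and *Fbxo5* of the S list had a higher rho with the G2/M list, and *Cdk1* and *Aurkb* of the G2/M list a higher rho with the S list. All points of a set share their library preparation and a depth of 339000 fragments. Among 16453 other genes found in at least 5% of cells, the most alike to the S mean were *Pclaf* (0.54), *Gm11223*, *Gm5487*, *Stmn1*, *Gm15428*, *Tuba1b*, *Lig1*, *Asf1b*, *Ncaph* and *Smc2*. The most alike to the G2/M mean were *Gm8956* (0.60), *Gm11223*, *Pclaf*, *Gm15428*, *Stmn1*, *Cdca3*, *Gm48337*, *Cenpf*, *Gm44521* and *Knstrn*. Of these, 3 and 5 are processed pseudogenes by GENCODE vM21, and their counts are uncertain because such genes can share reads with the gene they copy.

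Further cell cycle genes outside the 48 were read from the same fits. Of 35 other G2/M genes, 33 were lower in both mice and 0 higher, beside 32.4% of all genes lower. Their median log2 fold change was -0.87. Without the block edgeR called 0 lower, beside 0.0% of all genes, and with it 16, beside 1.88%. *Psrc1*, a spindle protein, was at 10.3 and 13.9 CPM against 5.35 and 3.01 CPM with TNF, and was called by DESeq2 (adjusted p = 0.00723) and not by edgeR with the block (adjusted p = 0.0862). *Kif23*, a kinesin of cytokinesis, was at 64.9 and 64.4 CPM against 27.5 and 20.2 CPM, and was called by both (adjusted p = 0.0162 by edgeR with the block). The other 15 called with the block were *Anln*, *Cdca3*, *Cdca8*, *Cenpe*, *Cenpf*, *Ckap2*, *Cks2*, *Ect2*, *Gtse1*, *Kif20b*, *Lbr*, *Ncapd2*, *Nek2*, *Nuf2* and *Tacc3*.

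Of 29 other S genes, 17 were lower in both mice, beside 32.4% of all genes, and 3 were higher in both. Their median was -0.30. With the block edgeR called 0, beside 1.88% of all genes called lower, and without it also 0, beside 0.0%. The largest differences were *Dscc1*, a clamp-loading factor, at -1.36 (SE 0.61), and *Polr1b*, a subunit of RNA polymerase I, at 0.73 (SE 0.33). Of 28 regulators, 27 were tested, and edgeR with the block called *Ccnd1* and *Cdkn2c* lower and none higher. Over all 17034 genes it called 320 lower and 331 higher. *Ccnd1*, the cyclin D1 of G1, was at 36.1 and 7.26 CPM against 16.2 and 2.33 CPM (adjusted p = 0.0323). *Cdkn2c*, which encodes the CDK4 and CDK6 inhibitor p18, was at 45.2 and 38.5 CPM against 23.4 and 20.1 CPM (adjusted p = 0.0294), and was called by DESeq2 too. *Cdkn2b* had the largest log2 fold change of the list at 1.42 (SE 1.44) and was at 1.85 and 0.0475 CPM against 3.36 and 1.73 CPM.

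The RNA content of the classes was compared by the ratio of gene to spike-in fragments. The median ratio in the G2/M class was 1.06 and 1.15 times that in neither class with IL4+IL13 and 0.826 and 1.45 times with TNF. It was higher in 3 of 4 sets, with a geometric mean of 1.10 (exact two-sided sign-flip permutation p = 0.5, where 4 sets allow no p under 0.125). For the S class the geometric mean was 0.998 (exact sign-flip permutation p = 1.0). At equal depth, more genes were found in the G2/M class than in neither class in each set, 7815 against 7205 and 7337 against 6745 with IL4+IL13, and 8400 against 7591 and 8400.5 against 7274 with TNF (medians).

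The labels name macrophages, and the 8 macrophage markers were all found. Their sum was 15497 and 17399 CPM with IL4+IL13 and 27261 and 26645 CPM with TNF. This sum was higher with TNF while the G2/M genes were lower. In the G2/M class it was 11047 and 12550 CPM against 24776 and 20927 CPM. Such a sum is weighted to its highest genes, and the 8 markers are not given singly here. Markers of progenitors, of which some divide, summed to at most 10.7 CPM in any sum over all cells, and neutrophil, fibroblast, B cell, T or NK cell, mast cell and erythroid lists to at most 5.29 CPM each. In the S class the progenitor markers were at 19.5 CPM in mouse 1 with IL4+IL13 and at most 2.26 CPM in the other sums. The 3 monocyte markers summed to 7.54 to 19.98 CPM over all cells and, in the G2/M class, to 22.2 and 46.1 CPM with IL4+IL13 and 62.4 and 4.64 CPM with TNF. The 4 dendritic cell markers summed to 8.53 and 12.6 CPM against 29.1 and 204 CPM with TNF. The part of these markers in the differences above was not tested.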

How the data were processed

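The deposited table gives raw counts, the number of fragments on each gene in each well, with no normalization. By the study's methods fragments were aligned with gsnap to mm10 and uniquely mapped fragments assigned to Ensembl genes with featureCounts 1.6.3, and the table header shows that strand was not used; the submitters' processing notes also name bcl2fastq 2.19.1 and Seurat 3. There are no molecular identifiers, so PCR copies are counted. The 92 spike-in rows were left out of totals and tests, and 11 columns were not used (8 match no sample and 3 give no mouse).

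Wells were left out per plate beyond 3 median absolute deviations in total, genes, mitochondrial or spike-in share. Cells were sorted singly, and no doublet caller was run. Phases were scored with CellCycleScoring of Seurat 5.3.0. Sums per mouse and treatment were tested with edgeR 4.0.16 (glmQLFTest, TMM, Benjamini-Hochberg over all genes, threshold 0.05) in R 4.3.3 on genes found in at least 5% of cells of either treatment; DESeq2 1.42.0 and limma 3.58.1 were alternatives. The treatments of a mouse come from the same animal and plates, and across 17034 genes the departures of same-mouse sums from their treatment mean had r = 0.581, so the mouse pairs them. The p-values of edgeR and DESeq2 without the block measure the treatment difference against the spread between 2 mice. Those with the block measure it against how far that difference varied between the mice.

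The members and lists were chosen with earlier results of these data known. Named with every level were, in each of 8 roles, the 2 genes with the highest mean CPM and the 1 with the largest log2 fold change, with *Mki67* and *Top2a*.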

Additional observations from a re-analysis of the deposited data

How the results depend on the processing

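The 26 G2/M genes kept a negative log2 fold change over all cells under every alternative run, but with 1 sum left out it moved by over 1.5 times for 16 of them, and it was smallest in size without IL4+IL13 mouse 1 for 14 of 26 and without IL4+IL13+TNF mouse 2 for 10. Ranges were *Ccna2* -1.77 to -0.52, *Cdc20* -1.80 to -0.65, *Birc5* -1.65 to -0.71, *Tpx2* -1.19 to -0.43, *Cdk1* -1.14 to -0.18 and *Pbk* -1.54 to -0.05, and among S genes *Pcna* -0.97 to -0.09 and *Fbxo5* -1.26 to -0.18. With the mouse as a replicate block and in DESeq2, 1.88% and 1.72% of all genes were called lower. The number of G2/M genes called, 0 in edgeR without the block, was 17 and 8 in these fits. For the other G2/M genes it was 16 and 9, and for the regulators 2 and 1. Fits with 1 sum left out were run in edgeR without the block only. They therefore do not bear on the calls made with the block or by DESeq2. In such a fit, a treatment with 1 sum has no spread of its own, and the spread comes from the other treatment. The median of the S genes ranged from -1.06 to 0.45 with 1 sum left out and was 0.45 without IL4+IL13 mouse 1, and that of the G2/M genes from -1.45 to -0.54. *Cdc6* turned to -0.085 with the block, -0.037 with library size and -0.050 with limma on mean CPM. With 1 sum left out, log2 fold changes ranged across 0 for 19 S genes: *Ccne1* -0.12 to 1.47, *Ccne2* -1.29 to 0.82, *Cdc45* -1.36 to 0.37, *Cdc6* -1.08 to 0.73, *E2f7* -1.07 to 0.95, *Esco2* -0.71 to 0.16, *Gins2* -0.94 to 0.45, *Hells* -0.37 to 1.18, *Mcm2* -0.87 to 0.73, *Mcm3* -0.75 to 0.56, *Mcm4* -0.98 to 0.25, *Mcm5* -1.18 to 0.56, *Mcm6* -1.10 to 0.45, *Mcm7* -1.36 to 0.055, *Rad51ap1* -1.55 to 0.087, *Rrm1* -1.08 to 0.27, *Rrm2* -1.05 to 0.92, *Tyms* -1.31 to 0.37, *Uhrf1* -1.07 to 0.67.

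The G2/M share difference was -10.2 points for cells with *Mki67* and *Top2a*, with -15.1 in mouse 1 and -5.42 in mouse 2. This pair sets no S class, so its G2/M cells and its cycling cells are the same cells. The S share difference was -0.51 points with scores from other genes. With 1 mouse left out the differences ranged from -18.5 to -11.9 (G2/M), -3.36 to -1.24 (S) and -21.9 to -13.1 points (cycling). In cycling cells the G2/M median, -0.20, was 0.21 and 0.45 in S cells and 0.18 and 0.17 in G2/M cells, without and with the replicate block. In cycling cells chosen by other cell cycle genes it was -0.39, and in those chosen by *Mki67* and *Top2a* -0.19. *Top2a* there was -0.034 with library size, -0.18 with cells chosen by other genes and -0.028 with cells chosen by *Mki67* and *Top2a*, and ranged from -0.50 to 0.43 with 1 sum left out; *Mki67* was 0.45 and 0.50 in S cells without and with the block. The cause was not tested for any of these, and the alternatives within 1 class were chosen after seeing the data.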

Other observations

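At equal depth, cells with at least 10 CPM of a cyclin overlapped in part. Of 337 cells at this level of *Ccnb1*, 215 (63.8%) also reached it for *Ccnb2* and 210 (62.3%) for *Ccna2*, while 69 (20.5%) did for *Ccne1* and 69 for *Ccne2*. Of 298 cells at this level of *Top2a*, 209 (70.1%) reached it for *Mki67*. *Pcna* reached it in 1144 of 1250 cells and *Mki67* in 369, and 344 cells (93.2% of the latter) reached it for both.

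The labels of 4 samples give no mouse, and these samples enter no value.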
